A study of Caenorhabditis elegans with 6 samples.

Results

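The 5 superoxide dismutase genes (sod-1 to sod-5) and the 3 catalase genes (ctl-1 to ctl-3) of Caenorhabditis elegans were followed in whole worms with and without 5-fluoro-2′-deoxyuridine (FUDR). They were chosen by gene symbol, not by their values, and make up 8 of the 46926 genes counted. FUDR is a nucleoside analogue that blocks thymidylate synthase and is used to keep worms from producing progeny. The study compared 3 libraries of untreated wild-type worms, labelled OP50 after the Escherichia coli food strain, with 3 libraries of wild-type worms treated with 50 µM FUDR. All 6 libraries were labelled whole worm at the L4 larval stage and were made from poly(A)-selected RNA. When the exposure began was not stated in the labels.

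Superoxide dismutases turn superoxide, a by-product of respiration and of oxidases, into hydrogen peroxide and oxygen, and catalases break hydrogen peroxide down to water and oxygen. In C. elegans the copper-zinc enzymes are SOD-1, the main cytosolic form, SOD-5, a minor cytosolic form, and SOD-4, which is secreted or membrane-bound. The manganese enzymes SOD-2 and SOD-3 work in mitochondria, and sod-3 is widely used as a reporter for DAF-16, the FOXO factor held in check by insulin signalling. Of the catalases, CTL-2 is the main, peroxisomal enzyme and CTL-1 is cytosolic, while ctl-3 reporters have been seen in pharyngeal muscle and neurons.

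Libraries held 61312034 to 99234226 gene counts, so that a floor of 3 counts corresponded to 0.0315 to 0.0496 CPM (counts scaled to a common library total, with TMM scaling between libraries). FUDR replicate 3 stood apart in its group: chi-square over its degrees of freedom was 166 and 77.2 against the other FUDR libraries and 38.6 between those 2. OP50 replicate 1 stood apart too, at 41.7 and 67.7 against the other OP50 libraries and 19.4 between those 2. Values without FUDR replicate 3 are given beside results that turn on it. Germline markers were lower in FUDR (11 of 12 called, median log2 fold change −0.97), with a summed level of 5706 to 5982 CPM in OP50 and 2506 to 3335 CPM in FUDR. In whole worms, fewer cells of a type and less RNA per cell cannot be told apart. Yolk and adult cuticle markers were present in every library despite the L4 label, with 19226 ± 1415 CPM of the yolk gene vit-2 in OP50 and 13229 ± 4373 CPM in FUDR (SD, n = 3 libraries; not called, edgeR adjusted p = 0.0776). Of 8 such markers 3 were called lower, all for yolk proteins (−1.16 for vit-1, −0.81 for vit-3, −0.74 for vit-4), and 2 higher, both for cuticle collagens (1.08 for col-7, 0.41 for col-19). Of these 5 genes, vit-1 alone kept its call whichever single library was left out.

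The 2 enzyme classes showed small and unequal differences. At a Benjamini-Hochberg adjusted p under 0.05 in edgeR's quasi-likelihood test, sod-4 and ctl-1 rose and sod-1 fell. That is 3 of the 8 genes, all of which passed the filter on low counts, beside 41.0% of the 17022 genes tested across the genome. Genes called higher were 20.0% and genes called lower 21% of all tested, so the family's share was near the background. Groups did not overlap for 3 of the 8 genes, against 54.7% of all genes tested (28% with FUDR above and 26.7% with FUDR below). The median log2 fold change was 0.21 over the 8 genes and 0.05 over all genes tested.

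Per base of exon the genes spanned a wide range of levels (TPM, a count per exon length scaled to a common library total). Over the 6 libraries sod-1 averaged 247 TPM and sod-2 averaged 134 TPM, and then came ctl-2 at 55.2 TPM. The lowest was sod-5 at 0.24 TPM. Between them lay ctl-1 at 10.6, sod-4 at 8.75, ctl-3 at 6.58 and sod-3 at 4.23 TPM. Ranges over the libraries did not touch between sod-1, sod-2, ctl-2 and ctl-1 in that order, nor between sod-3 and sod-5. They did overlap between ctl-1 and sod-4, between sod-4 and ctl-3 and between ctl-3 and sod-3, so the order of those means does not go beyond the spread over libraries. Within each of the 6 libraries, however, sod-4 lay above ctl-3 (1.06 to 2.35 times). In every library, then, each major enzyme far exceeded the minor one of its compartment: the sod-1 level was 675 to 2035 times that of sod-5, and the sod-2 level 23.5 to 47.2 times that of sod-3.

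**Figure D1:**
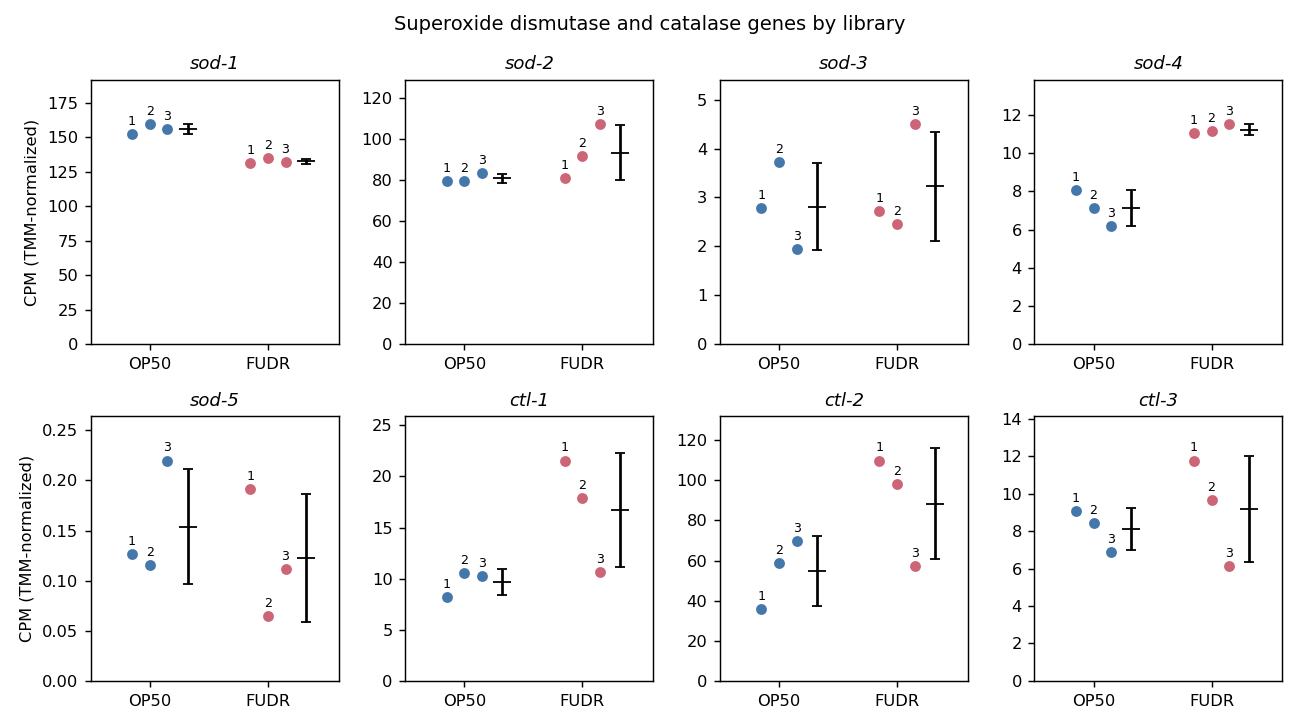
TMM-normalized CPM (y axis, from 0, on its own scale for each gene) of the 8 genes in the 3 OP50 and 3 FUDR libraries; numbers are replicate labels, and bars are mean ± SD. Groups are separate for sod-1, sod-4 and ctl-1 and overlap for the other 5 genes.

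The extracellular enzyme gene sod-4 (chromosome III, 9496884 to 9500375, minus strand, WBcel235) had the most reproducible change. Its level was 8.08, 7.14 and 6.17 CPM in OP50 replicates 1 to 3 and 11.04, 11.1 and 11.5 CPM in FUDR replicates 1 to 3. Every FUDR library lay above every OP50 library. The FUDR libraries differed among themselves by less than their counting error (2.36% coefficient of variation, against 3.30% from counts alone). The OP50 libraries differed by more than theirs (13.4%, against 4.26% from counts alone). The rise was 1.57-fold (95% interval 1.297 to 1.91), 0.66 ± 0.123 (SE) on the log2 scale, with an edgeR adjusted p = 0.00335. With any single library left out the log2 fold change stayed between 0.55 and 0.76 and the call held, with adjusted p between 0.00493 and 0.018. A test against a 1.5-fold change did not call it (adjusted p = 0.555).

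The sod-4 counts sum over 4 annotated transcripts, so the secreted and membrane-bound forms were not told apart. The gene overlaps ctr-9, a gene of the PAF1 transcription elongation complex on the other strand, over 175 of its 1306 exon bases. The level of ctr-9 was far higher and moved the other way, from 139.9 ± 1.35 CPM in OP50 to 111 ± 9.88 CPM in FUDR (log2 fold change −0.33, edgeR adjusted p = 0.0159). The ctr-9 call was lost without OP50 replicate 2 or 3 (adjusted p = 0.0616 and 0.057). The labels name no strand-marking step, so reads in the shared bases cannot be assigned to one strand here.

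The main cytosolic enzyme gene sod-1 (chromosome II, 6972706 to 6973887, minus strand) was slightly lower in FUDR. Its level was 152, 159.7 and 156 CPM in the OP50 libraries and 131, 135 and 132 CPM in the FUDR libraries. The groups did not touch, and the coefficient of variation within groups was 2.34% in OP50 and 1.38% in FUDR, above the 0.919% and 0.961% given by counting alone. The fall was 1.18-fold, or −0.23 ± 0.0754 as log2 (edgeR adjusted p = 0.0352). Falls were common among genes at this level: of 1931 tested genes with a mean over 100 CPM, 50.2% were called lower and 9.06% higher.

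The sod-1 call depended on how libraries were scaled and genes were filtered. The log2 fold change was −0.08 with upper quartile scaling (adjusted p = 0.35) and −0.01 with library size only (adjusted p = 0.959), settings that moved the median of all genes by over 0.1. A filter at 5 CPM gave −0.12 (adjusted p = 0.137), though the median over all genes it kept was 0.02. The call was also lost when any library but FUDR replicate 3 was left out, with adjusted p between 0.0516 and 0.136.

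Its minor cytosolic partner sod-5 (chromosome II, 4417633 to 4419130, plus strand) was barely detected. It had 12, 7 and 16 counts in the OP50 libraries and 12, 6 and 10 counts in the FUDR libraries, which amounts to 0.065 to 0.22 CPM. FUDR replicates 2 and 3 were the lowest and OP50 replicate 3 the highest, with the other libraries overlapping. The interval of the log2 fold change ran from −1.64 to 0.90 (estimate −0.37, edgeR adjusted p = 0.623), so a difference was not detectable at this depth. The sod-1 and sod-5 genes share a gene structure, with exons 2, 3 and 4 being 84, 159 and 154 bases long in each.

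The mitochondrial manganese enzyme genes were not called. The level of sod-2 (chromosome I, 8434550 to 8435807, plus strand) was 79.3, 79.7 and 83.2 CPM in OP50 and 80.9, 91.5 and 107 CPM in FUDR. FUDR replicate 1 lay inside the OP50 range while replicates 2 and 3 lay above it. The log2 fold change was 0.21 ± 0.107 (edgeR adjusted p = 0.15, 95% interval −0.03 to 0.45). It became 0.29 with an adjusted p = 0.0308 without FUDR replicate 1 and 0.09 with an adjusted p = 0.345 without FUDR replicate 3. With upper quartile scaling (0.36, adjusted p = 0.0331) and library size only (0.44, adjusted p = 0.017) the gene was called higher.

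The DAF-16 reporter gene sod-3 (chromosome X, 17092753 to 17094306, plus strand) was low in both groups. It had 2.79, 3.72 and 1.94 CPM in OP50 and 2.72, 2.46 and 4.51 CPM in FUDR. Only FUDR replicate 3 exceeded the OP50 libraries, and the spread within groups (31.7% and 34.5%) was far over the 6.90% and 6.12% expected from counting. The log2 fold change of 0.20 ± 0.292 was not called (edgeR adjusted p = 0.605), and its interval of 0.73-fold to 1.83-fold leaves room for moderate changes either way. Without FUDR replicate 3 the estimate was −0.12 (adjusted p = 0.74), and without OP50 replicate 3 it was −0.01 (adjusted p = 0.984).

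Relative to sod-2 in the same library, a measure that no scaling changes, sod-3 stood at a log2 ratio per exon base of −5.02 ± 0.503 in OP50 and −5.03 ± 0.321 in FUDR (SD, n = 3 libraries; two-sided exact permutation p = 1). Exons 2 and 3 are 173 and 137 bases long in both genes. The sod-3 gene shares 89 of its 881 exon bases with 2 genes on the other strand, lido-1 and C08A9.3. Of these lido-1 fell from 4.79 ± 0.297 to 3.32 ± 0.0368 CPM (log2 fold change −0.53, edgeR adjusted p = 0.0107) and C08A9.3 had 25 counts over all libraries. The sod-2 gene shares 21 exon bases with dpt-1, which was not called (−0.15, adjusted p = 0.182).

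**Figure D2:**
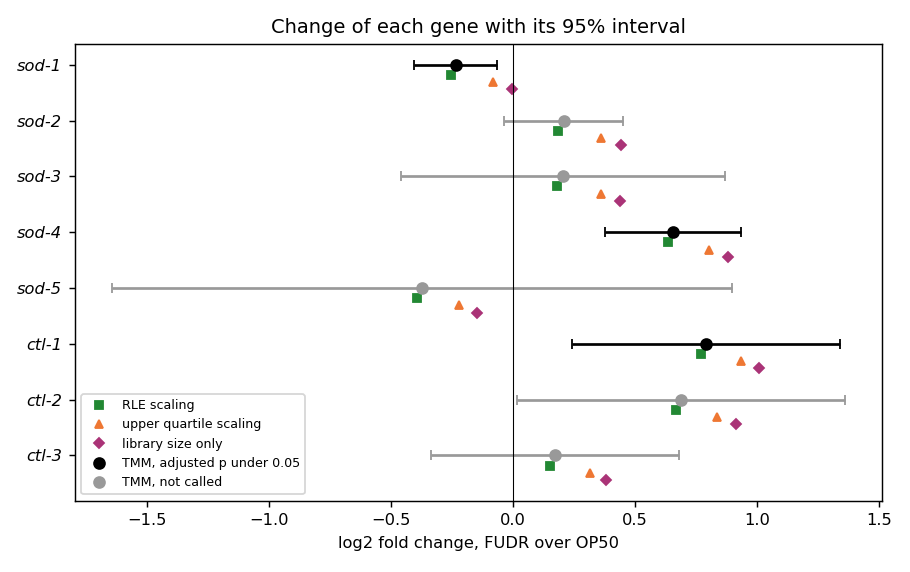
Log2 fold change (x axis, FUDR over OP50) of each gene (y axis) with TMM scaling and its 95% interval (circles and bars; black where the adjusted p was under 0.05), and the estimates with 3 other scalings. sod-1 moves from −0.23 to −0.01 with library size only, while sod-4 and ctl-1 stay above 0 with each scaling.

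The catalase genes lie in a row within 11224 bases of chromosome II (14299556 to 14310779), all on the minus strand, with ctl-2, ctl-1 and ctl-3 in order of coordinate and gaps of 1540 and 1537 bases. Each has consecutive exons of 645 and 273 bases, and the intron after the 273-base exon is 1013 bases long in both ctl-1 and ctl-3. Reads that align to more than 1 place were set aside by the counting (2.70% to 3.50% of all counts in the table), so levels of genes with like sequence may be too low. How alike the 3 sequences are was not examined here.

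The cytosolic enzyme gene ctl-1 (14303568 to 14306260) was the catalase called higher. It had 8.19, 10.5 and 10.3 CPM in OP50 and 21.6, 17.9 and 10.6 CPM in FUDR. FUDR replicates 1 and 2 were well above OP50, whereas replicate 3 exceeded the highest OP50 library by little. The rise was 1.73-fold (95% interval 1.18 to 2.53), or 0.79 ± 0.239 as log2 (edgeR adjusted p = 0.0296). Without FUDR replicate 3 it was 1.03 (adjusted p = 0.000403). Leaving out any of the other 5 libraries gave 0.56 to 0.85 and ended the call, with adjusted p between 0.0538 and 0.0831.

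The peroxisomal enzyme gene ctl-2 (14299556 to 14302027) showed a change of like size that was not called. Its level was 35.9, 59.0 and 69.7 CPM in OP50 and 109.9, 98.2 and 57.3 CPM in FUDR. FUDR replicates 1 and 2 lay above every OP50 library and replicate 3 lay inside the OP50 range. The log2 fold change was 0.69 ± 0.291 (edgeR adjusted p = 0.0925, interval 0.02 to 1.36 before adjustment). DESeq2 called it (0.67, adjusted p = 0.0303), as did upper quartile scaling (adjusted p = 0.0385), library size only (adjusted p = 0.0319) and a filter at 5 CPM (adjusted p = 0.0498). It was not called with any single library left out (adjusted p between 0.0525 and 0.338). Dropping OP50 replicate 1 gave an estimate of 0.45, dropping FUDR replicate 1 gave 0.50, and dropping FUDR replicate 3 gave 0.92 (adjusted p = 0.0819).

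For ctl-3 (14307798 to 14310779) the groups overlapped. It had 9.09, 8.41 and 6.90 CPM in OP50 and 11.8, 9.66 and 6.14 CPM in FUDR, with the lowest and the highest value both in FUDR. The log2 fold change was 0.17 ± 0.223 (edgeR adjusted p = 0.566, interval −0.34 to 0.68). It was 0.39 without FUDR replicate 3 (adjusted p = 0.065) and −0.05 without FUDR replicate 1 (adjusted p = 0.872).

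Summing the 3 catalase genes gives a level that does not depend on how reads were split among them. The sum was 53.2, 77.9 and 86.9 CPM in OP50 and 143, 126 and 74.1 CPM in FUDR. It was 1.57-fold higher in FUDR, a log2 fold change of 0.65 ± 0.257 that was not called (edgeR adjusted p = 0.0738). Without FUDR replicate 3 it was 0.88 and called (adjusted p = 0.0306). It was not called with any other single library left out. Without OP50 replicate 1 it was 0.47 (adjusted p = 0.176), and without FUDR replicate 1 it was 0.46 (adjusted p = 0.282).

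**Figure D3:**
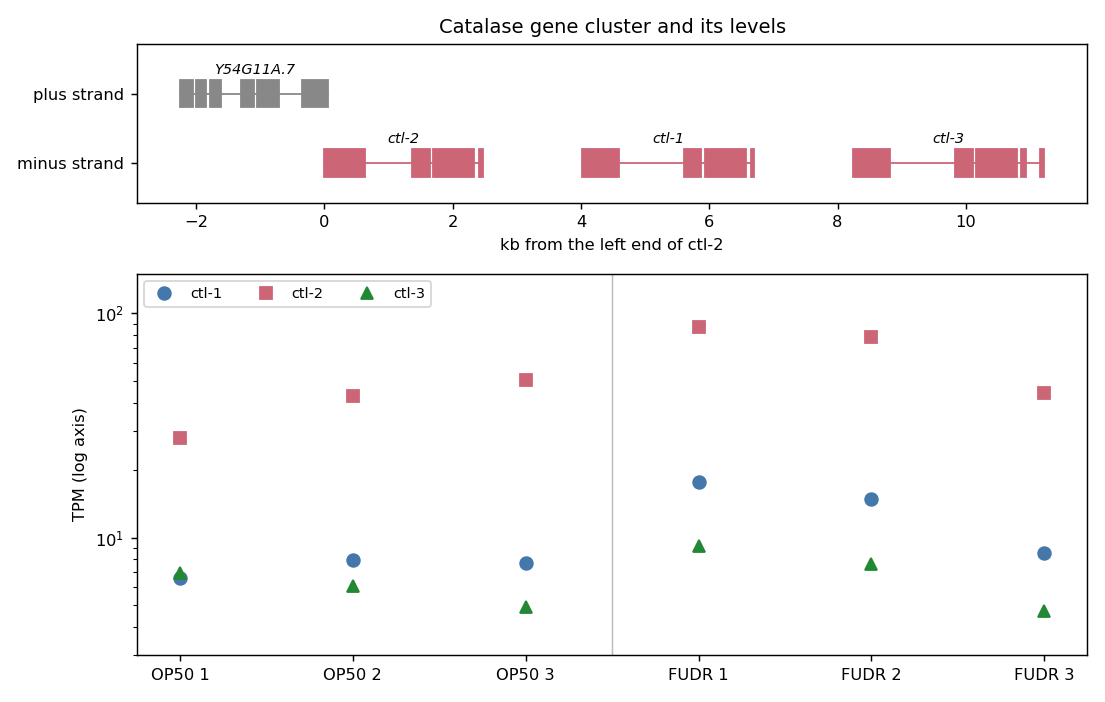
Top, the catalase genes and the overlapping gene Y54G11A.7 in kb from the left end of ctl-2, with boxes for exons and lines for introns. Bottom, TPM (log axis) of the 3 genes in each library: ctl-2 is highest in all 6, and the 3 genes lie closest to parallel across the FUDR libraries.

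Within FUDR the 3 catalases varied together. As log2 CPM minus the mean of the group, they stood at 0.37 to 0.43 in FUDR replicate 1, at 0.12 to 0.20 in replicate 2 and at −0.59 to −0.53 in replicate 3. Accordingly the ctl-2 level per exon base was 4.92 to 5.29 times that of ctl-1 in FUDR, within the 4.23 to 6.55 times of OP50, and 9.44 to 10.3 times that of ctl-3. In OP50 the genes did not keep this order: ctl-2 was lowest in replicate 1 (−0.56) where ctl-3 was highest (0.17), and the ctl-2 level in OP50 was 3.99 to 10.2 times that of ctl-3. Per exon base ctl-1 was 0.945 to 1.56 times ctl-3 in OP50 and 1.82 to 1.95 times in FUDR, a contrast picked after the values were seen and not tested.

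In the same FUDR libraries sod-2 and sod-3 ran the other way, with their highest values in replicate 3 (0.21 and 0.53), while sod-1 and sod-4 stayed within 0.04 of their means. Markers also differed among these libraries. The summed level of 12 intestinal markers was 9023, 7564 and 6853 CPM in FUDR replicates 1 to 3, against 6816 to 7312 CPM in OP50. Summed over 10 body wall muscle markers the level was 16244, 11831 and 8763 CPM, against 14586 to 15768 CPM in OP50, and over 10 pharyngeal markers it was 1181, 829 and 497 CPM, against 817 to 1168 CPM. Every marker on these lists was expressed above the count filter, with 4 intestinal, 0 muscle and 2 pharyngeal markers called higher and 3, 0 and 0 called lower. The sum of 10 hypodermal and seam markers ran the other way, at 779.8, 815 and 936 CPM in FUDR, above the 608 to 665 CPM of OP50, with 3 called higher and 0 lower. Such sums weigh the most abundant markers most, and not every marker followed its sum. Most of the intestinal sum was asp-1 (5494, 4301 and 3744 CPM in FUDR replicates 1 to 3). In the same libraries the intestinal marker spp-5 (429, 498 and 607 CPM) was highest in replicate 3, where the sum of its list was lowest. So was the pharyngeal marker tnc-2 (41.8, 43.0 and 48.5 CPM). The hypodermal marker bli-1 (79.9, 71.6 and 52.6 CPM) was lowest in replicate 3, where the sum of its list was highest. Whether the differences in summed markers bear on the catalase or sod-2 values was not tested.

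**Figure D4:**
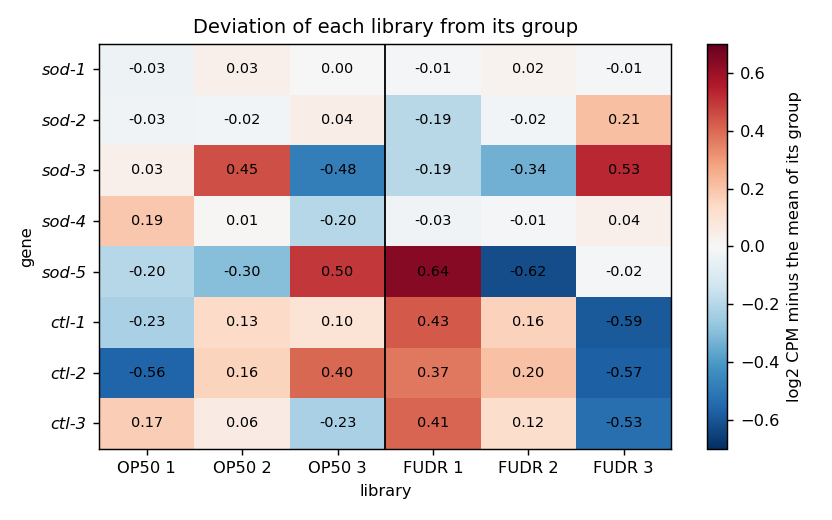
Log2 CPM of each gene (rows) in each library (columns) minus the mean of its group; red is above and blue below. The 3 catalases are above their mean in FUDR replicates 1 and 2 and between −0.59 and −0.53 in replicate 3, where sod-3 is at 0.53.

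Genes next to the catalases moved in different directions. At one end Y54G11A.7, on the other strand and overlapping ctl-2 by 65 exon bases, fell (log2 fold change −0.92, edgeR adjusted p = 0.000878), and Y54G11A.4, 3838 bases from ctl-2, rose (0.70, adjusted p = 0.0141; not called without OP50 replicate 2 or FUDR replicate 2). At the other end Y54G11A.14, separated from ctl-3 by 7378 bases, rose (0.91, adjusted p = 0.00124). Of the 10 genes nearest to the sod genes on either side, 3 fell, 1 rose and 6 were not called. Among all genes tested 21% were called lower and 20.0% higher, 41.0% in all, so this count was near the background. Next to sod-1, 470 bases away, art-1 fell from 222 ± 10.8 to 140.0 ± 3.24 CPM (−0.66, edgeR adjusted p = 0.000518). Both neighbours of sod-2 fell, F02E9.10 (−0.31, adjusted p = 0.0124) and F10D11.2 (−0.34, adjusted p = 0.0171), and C08A9.10 beside sod-3 rose (0.41, adjusted p = 0.0421). These last 3 calls were lost without OP50 replicate 2 (adjusted p between 0.0592 and 0.0835), those of F02E9.10 and C08A9.10 also without OP50 replicate 3 or FUDR replicate 2, and that of C08A9.10 without OP50 replicate 1 or FUDR replicate 3. The noncoding gene C15F1.13, which overlaps 85 exon bases of sod-1, had 0 counts.

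The total of superoxide dismutase transcripts overlapped between groups, while 3 of the 5 shares, added after the data were seen, did not. Summed over the 5 genes the level was 391 ± 9.42 TPM in OP50 and 398 ± 19.5 TPM in FUDR (SD, n = 3 libraries; two-sided exact permutation p = 0.7). The share held by sod-1 was 66.1, 67.0 and 66.2% in OP50 and 61.8, 59.9 and 55.3% in FUDR. That of sod-2 was 30.9, 30.02 and 31.6% in OP50 and 34.2, 36.5 and 40.4% in FUDR. Shares of sod-4 were 1.93, 1.65 and 1.44% in OP50 and 2.86, 2.73 and 2.67% in FUDR. These 3 shares did not overlap between groups, and each gave a two-sided exact permutation p = 0.1, the smallest that 3 against 3 libraries allow (adjusted p = 0.367 over 11 measures of level and share). For comparison, levels of single genes did not overlap for 54.7% of all genes tested. Shares within a library do not depend on its scaling, but they sum to a fixed total and so are not independent.

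Catalase shares overlapped between groups, with ctl-2 at 74.2 ± 6.46% in OP50 and 77.0 ± 0.684% in FUDR. The summed catalase level was 53.9 ± 11.2 TPM in OP50 and 90.8 ± 29.5 TPM in FUDR, and superoxide dismutase transcripts outnumbered it 6.06 to 9.67 times in OP50 and 3.31 to 7.18 times in FUDR. On the log2 scale the ratio of catalases to superoxide dismutases was 0.69 higher in FUDR (two-sided exact permutation p = 0.3, the smallest possible being 0.1). It was 1.02 higher without FUDR replicate 3, 0.46 higher without FUDR replicate 1 and 0.50 higher without OP50 replicate 1.

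**Figure D5:**
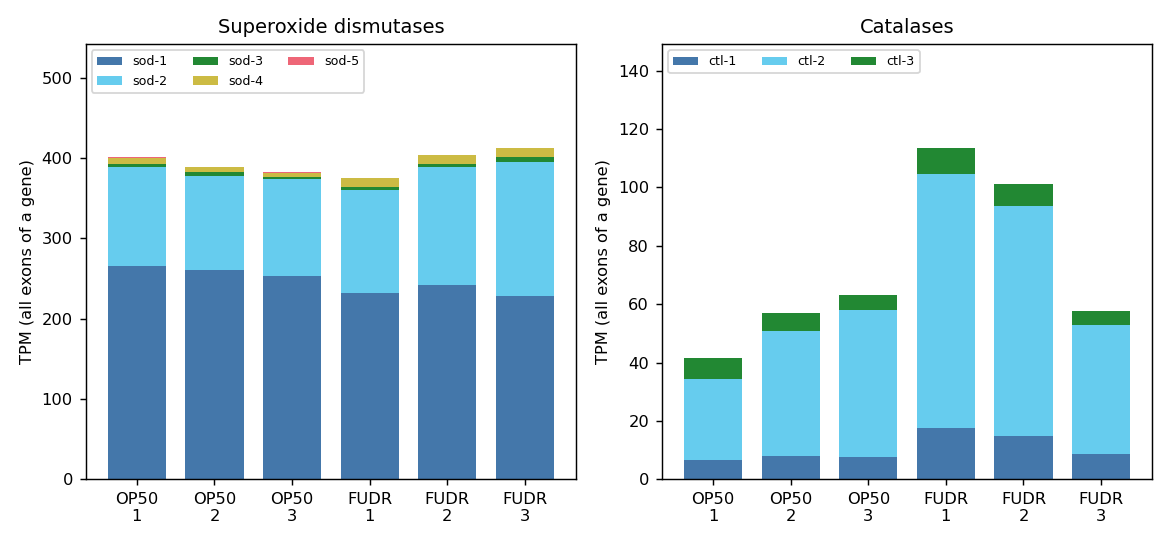
TPM of the superoxide dismutase genes (left) and catalase genes (right) stacked by library; sod-5 is too low to see. The left totals lie between 376 and 413 TPM in all 6 libraries, and the right totals between 41.5 and 63.1 TPM in OP50 and between 57.6 and 114 TPM in FUDR.

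Among other genes that remove peroxides or keep thiols reduced, 9 of 25 tested rose and 1 fell, with a median log2 fold change of 0.28, against 0.05 over all genes tested. That is 40% of the list called, beside 41.0% of all genes tested, and the same background, 20.0% higher and 21% lower, applies to the other lists. The glutathione peroxidase gene gpx-4 rose from 1.08 ± 0.302 to 3.40 ± 0.673 CPM (1.64 ± 0.248, edgeR adjusted p = 0.00121). The methionine sulfoxide reductase gene msra-1 rose by 0.99, the thioredoxin gene trx-4 by 0.68 and the glutaredoxin gene glrx-5 by 0.40 on the log2 scale. The glutathione synthetase gene gss-1 fell by 0.27, a call lost under upper quartile scaling (adjusted p = 0.264) or library size only (0.754), and when OP50 replicate 2 or 3 or FUDR replicate 2 was left out (adjusted p between 0.0915 and 0.106). Without OP50 replicate 2 or 3 the number that rose was 5.

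Oxidases that release hydrogen peroxide or superoxide changed in both directions, with 3 of 15 tested higher and 2 lower (median 0.13). The peroxisomal acyl-CoA oxidase genes acox-1.5 (0.97) and acox-1.6 (1.04) rose and acox-1.4 (−0.56) and acox-1.2 (−0.65) fell. Like the catalases, acox-1.6 was highest in FUDR replicate 1 and lowest of its group in replicate 3 (36.3, 33.1 and 18.8 CPM). With OP50 replicate 2 or either of the first 2 FUDR libraries left out its call was lost, at an adjusted p of 0.0513 to 0.0805, and it was 1.27 without FUDR replicate 3. The dual oxidase gene duox-2 rose (1.12, adjusted p = 0.0287), at a level under 1 CPM, and was not called with any single library left out. Without OP50 replicate 2 or FUDR replicate 1 or 2 the number that rose was 1, and without FUDR replicate 3 it was 5.

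Peroxisome biogenesis and membrane transport genes, which supply the organelle where CTL-2 acts, were also mixed, with 4 of 16 higher and 3 lower (median −0.08). The ABC transporter gene pmp-4 rose from 14.9 ± 2.55 to 43.0 ± 11.3 CPM (1.53 ± 0.206, edgeR adjusted p = 0.000886), and the peroxin gene prx-13 rose by 0.50. The transporter genes pmp-3 (−0.51) and pmp-5 (−0.85) and the peroxin gene prx-14 (−0.40) fell. The pmp-5 call was lost without OP50 replicate 2 or any one FUDR library. Without OP50 replicate 1 or FUDR replicate 2 the number that rose was 2.

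Of 17 genes of the insulin pathway and its cofactors, which act on sod-3, 8 fell and 3 rose (median −0.36). Some of the 17, such as daf-16 (not called), averaged over 100 CPM. At that level 50.2% of tested genes were called lower. The phosphoinositide 3-kinase gene age-1 fell by 1.26 and the heat shock factor gene hsf-1 fell by 0.50. Kinase genes of the list moved both ways, with akt-1 (−0.43, edgeR adjusted p = 0.00628) and pdk-1 (−0.58, adjusted p = 0.00968) lower. Of the lower genes named, age-1, hsf-1 and pdk-1 stayed under 100 CPM in every library, so that background does not cover them. The akt-1 level ran from 80.7 to 126 CPM over the libraries. The transcription factor gene pqm-1 rose from 13.1 ± 0.846 to 30.5 ± 4.80 CPM (1.22 ± 0.128, edgeR adjusted p = 0.000262), and the kinase genes akt-2 (0.47) and sgk-1 (0.37) rose. When OP50 replicate 1 or 2 or FUDR replicate 2 was left out, pqm-1 alone of these 3 was called. The FOXO gene daf-16 itself (−0.21, adjusted p = 0.151) and the receptor gene daf-2 (−0.44, adjusted p = 0.121), singled out after their values were seen, were not called. Without FUDR replicate 1 both were called lower (−0.33, adjusted p = 0.0199, and −0.67, adjusted p = 0.0156). Germline markers were lower in the same libraries, with the sums given above, and their part in these falls was not tested.

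Among 18 tested DAF-16 target genes other than sod-3, 3 rose and 3 fell (median 0.08). The gene dod-3 rose from 1.02, 1.24 and 0.976 CPM in OP50 to 31.2, 28.3 and 9.97 CPM in FUDR (4.43 ± 0.44, edgeR adjusted p = 0.000313), again with its lowest FUDR value in replicate 3 (4.79 without that library). The acid sphingomyelinase gene asm-2 (0.59) and the linker histone gene hil-1 (0.78) also rose. The genes dao-3 (−0.49), sip-1, a small heat shock protein gene (−1.09), and lea-1, which encodes a late embryogenesis abundant protein (−1.14, adjusted p = 0.0434), fell. The lea-1 call was lost without any one FUDR library (adjusted p between 0.0978 and 0.28) and with DESeq2, limma-voom, upper quartile scaling, library size only, no filter or the 5 CPM filter (adjusted p between 0.0566 and 0.2). OP50 replicate 1 stood far above the others (1016, 411 and 350.3 CPM), and without it the estimate was −0.51 (adjusted p = 0.0392). Without FUDR replicate 3, 6 of the targets rose and 2 fell. Among genes that handle the metals these enzymes carry, 1 of 11 tested rose, the manganese transporter gene smf-1 (0.38), and 2 fell, the copper-transporting ATPase gene cua-1 (−0.48) and the ferritin gene ftn-2 (−0.62), with a median of 0.04. The copper transporter gene chca-1 was not called (−0.82, adjusted p = 0.0683), and the smf-1 call was lost when OP50 replicate 1 or 3 or FUDR replicate 2 was left out (adjusted p between 0.055 and 0.0662). Calls for ftn-2 were lost without FUDR replicate 2 (adjusted p = 0.0588), and chca-1 was called without OP50 replicate 1 (−1.11, adjusted p = 0.00843).

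The genes most like each called member, by Pearson correlation of log2 CPM over the 6 libraries among 6436 genes with a symbol and a mean of at least 5 CPM, were as follows. For sod-4 they were abf-6 (r = 0.996), an antibacterial factor-related gene, and clec-67 (r = 0.995), a C-type lectin gene. For sod-1 they were sqv-7, a nucleotide sugar transporter gene, and lmtr-3, a Ragulator component gene (both r = 0.999). The closest to ctl-1 were tmem-132 (r = 0.999) and acs-17, an acyl-CoA synthetase gene (r = 0.992). The correlation takes no account of the size of a change. Log2 fold changes were 0.84 for abf-6 and 2.08 for clec-67, against 0.66 for sod-4. They were −0.42 for sqv-7 and −0.45 for lmtr-3, against −0.23 for sod-1, and 0.21 for tmem-132 and 0.81 for acs-17, against 0.79 for ctl-1. With so few libraries in 2 groups, and so many genes compared, such values describe these libraries only.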

How the data were processed

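The authors deposited raw counts of reads per gene for 6 libraries. STAR, HTSeq and WBcel235 are named in the submitters' processing notes. Their versions and strand setting were not given in the sources used here, so reads of genes that overlap on opposite strands may not be told apart. HTSeq's 5 summary rows (4.55% to 5.33% of counts) stayed out of totals and tests. All 46926 identifiers were found in the Ensembl annotation of WBcel235, which gave positions and exon lengths.

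Genes were tested in R 4.3.3 with edgeR 4.0.16 (filterByExpr with minimum count 10 and minimum total 15, TMM, robust quasi-likelihood F test, Benjamini-Hochberg over 17022 genes, threshold 0.05). Standard errors are the log2 fold change over the square root of F, and log2 CPM used a prior count of 2. Intervals are 95% and unadjusted. Counting errors and floors cover counting only. The fit was also run on counts simulated with known changes from its own estimates of spread. Those counts held no shared shift of a library such as FUDR replicate 3. That run thus cannot show how the fit does on these libraries, and its outcome is not reported here. Ratios within libraries used counts plus 0.5 per exon kilobase, with a two-sided exact permutation test. Nothing in the labels states that libraries came from separate cultures. P-values thus reflect only the spread among these libraries, which may be technical.

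Alternatives were DESeq2 1.42.0, limma-voom (limma 3.58.1), other scalings and filters, the non-robust fit, the replicate block, a 1.5-fold test and leaving out each library. Shares within a class were added after the data were seen. Genes, lists and alternatives were chosen with earlier results of these data known. Named are all 8 genes, up to 4 per list with the smallest p (1 such gene is not reported here), any in a count of 3 or fewer, genes overlapping them, nearest genes that were called, called stage markers, and the 2 most correlated with each called gene. Markers named beside the sums of their lists were picked after their values were seen. So were akt-1 and pdk-1, named because they moved opposite to akt-2 and sgk-1. Of the written list symbols, sodh-1 and fpn-1.3 were not matched, and trx-1, trx-5, scl-1 and smf-2 did not pass the filter.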

Additional observations from a re-analysis of the deposited data

How the results depend on the processing

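Over all genes, 3397 higher and 3582 lower calls became 5814 and 1931 with library size only and 874 and 367 in the test for changes over 1.5-fold, and with 1 library left out they were 2327 to 3400 and 2679 to 3834. Library size only and upper quartile scaling gave a median log2 fold change of 0.28 and 0.20 over all genes, and calls that rose made up 75.1% and 66.6% of calls, against 48.7%. Of the 8 genes, 2 were called higher and 1 lower. Higher calls were 4 under upper quartile scaling or library size only, 1 with limma-voom and with no count filter, 0 in the 1.5-fold test, and 1 to 2 with a library left out. Lower calls were 0 with upper quartile scaling, library size only, no count filter, the 5 CPM filter, the replicate block and the 1.5-fold test, and 0 to 1 with a library left out. The ctl-1 call was also lost with limma-voom (adjusted p = 0.0502) and no filter (0.056). The summed catalases (0.65) were called with DESeq2 (0.63), upper quartile scaling (0.80), library size only (0.88), the 5 CPM filter (0.76) and without FUDR replicate 3; leaving out 1 library gave 0.46 to 0.88.

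Deviations from the group means correlated little between libraries of the same replicate number (0.06, −0.02 and 0.06). Even so, the libraries numbered 1 and those numbered 3 were each other's best match across groups, unlike those numbered 2. Whether the numbers pair the libraries was thus not settled. With the replicate block sod-1 had −0.23 (adjusted p = 0.0621), and sod-4 and ctl-1 stayed called (0.66 and 0.74). Pairing leaves a mean difference in log2 ratio as it was by construction, so only its p-value could change. With pairs, the two-sided exact permutation p went from 0.3 to 0.5 for catalases to superoxide dismutases. For ctl-1 to ctl-2 it went from 0.7 to 0.75, and for the other ratios it did not change. Differences in log2 ratio with a library left out ran from −0.27 to 0.23 for sod-3 to sod-2, from −0.54 to 0.23 for sod-5 to sod-1, from −0.10 to 0.22 for ctl-1 to ctl-2 and from 0.46 to 1.02 for catalases to superoxide dismutases. The sign also turned with a library left out for sod-3 (−0.12 to 0.44) and ctl-3 (−0.0476 to 0.39), with upper quartile scaling for dpt-1 (0.00196) and with library size only for dpt-1 (0.0804) and daf-16 (0.00747). Differences in share of the class, in percentage points, ran from −0.0087 to 0.332 for sod-3, from −0.0281 to 0.00365 for sod-5 and from −0.667 to 5.70 for ctl-2.

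In the lists, thiol and peroxide genes gave 17 and 19 higher calls and 0 lower with upper quartile scaling and library size only, and oxidases gave 6 higher with each. With DESeq2 and the replicate block 2 thiol and peroxide genes fell and 2 metal genes rose. With library size only 5 insulin pathway genes, 1 DAF-16 target, 1 peroxisome gene and 1 metal gene fell, and 3 metal genes and 5 DAF-16 targets rose. In the 1.5-fold test 1 thiol, 0 oxidase, 1 peroxisome, 1 insulin pathway, 1 DAF-16 target and 0 metal genes rose, and 2 insulin pathway genes and 0 of the others fell. The causes were not tested. At 6 to 16 counts a library, depth limits sod-5.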
